A study of Mus musculus with 30 samples.

Results

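The change between 48 and 72 h of culture was measured in 4T1 cells under control vesicles, in 10 RNA-seq libraries of the 29 with counts, 5 at each time. The members were taken by label alone, as the adherent cells given vesicles of vehicle-treated neutrophils, and 13008 of the 39253 genes in the count table were expressed enough to be tested. 4T1 is a mouse mammary carcinoma line. The cells grew in 2D culture in complete medium with serum depleted of vesicles, and received small extracellular vesicles (sEVs) from primary Ly6G+ neutrophils of wild-type female BALB/c mice. The neutrophils had been kept for 48 h with DMSO, the vehicle (DMSO-sEV cells), or with 10 µM 27-hydroxycholesterol, 27HC, a metabolite of cholesterol (27HC-sEV cells). At the same times 27HC-sEV cells were harvested in 2 fractions, attached (adherent) and not attached (non-adherent), with 5 libraries a group but 4 for the latter at 72 h. All groups carried neutrophil vesicles, so a change with time in DMSO-sEV cells is a change in culture with vesicles present, with no vesicle-free cells at either time beside it. The labels give neither the vesicle dose nor what a replicate was, so the p-values rest on library-to-library spread that may be technical.

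Tumour cells that stay in one dish alter their surroundings as they grow: they use up nutrients and oxygen, fill the surface, and gather their own secreted factors. Cells lay down a basement membrane of laminins, type IV collagen and perlecan, to which integrins hold them. Interferons, released on sensing of foreign or misplaced nucleic acid, act through STAT2 and IRF9, among others, and raise a wide set of antiviral genes, while NF-kappa B and AP-1 factors drive chemokines and matrix-degrading enzymes.

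The metalloproteinase genes Mmp3, Mmp10 and Mmp13, the chemokine gene Cxcl1 and 34 of 49 interferon-stimulated genes rose from 48 to 72 h, while 22 of 33 basement membrane and matrix genes and 28 of 43 integrin, actin and focal adhesion genes fell. In edgeR's quasi-likelihood test with Benjamini-Hochberg adjustment, 51.6% of tested genes passed an adjusted p of 0.05, 3621 of them (27.8%) higher at 72 h and 3097 (23.8%) lower. Most of these changes were small, since 169 genes rose and 144 fell by at least 2-fold. In 11.3% of genes every 72 h library was above every 48 h library, and in another 11.3% every one was below.

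The promoters of 5 of the genes that rose most are shown because they hold short motifs named for the pathways above. Each is the 150 bases before the start site as RefSeq gives it on GRCm38.p6, read along the gene. In Ifit1 and Isg15 the capitals mark the interferon-stimulated response element, searched on both strands as GAAA, any 2 bases and GAAA. In Mmp3, Mmp10 and Mmp13 they mark the AP-1 site TGANTCA, whose reverse complement is spelled the same.
Ifit1 (chr19:34640739-34640888, plus strand): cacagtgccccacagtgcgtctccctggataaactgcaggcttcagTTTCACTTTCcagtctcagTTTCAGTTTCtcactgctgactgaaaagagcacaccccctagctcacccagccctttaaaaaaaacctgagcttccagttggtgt
Isg15 (chr4:156200819-156200968, minus strand): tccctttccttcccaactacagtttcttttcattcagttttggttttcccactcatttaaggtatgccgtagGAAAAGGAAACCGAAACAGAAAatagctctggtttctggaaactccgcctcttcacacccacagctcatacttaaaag
Mmp3 (chr9:7445672-7445821, plus strand): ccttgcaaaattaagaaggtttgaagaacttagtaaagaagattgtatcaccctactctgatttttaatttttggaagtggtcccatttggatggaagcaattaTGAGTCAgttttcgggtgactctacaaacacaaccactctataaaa
Mmp10 (chr9:7502192-7502341, plus strand): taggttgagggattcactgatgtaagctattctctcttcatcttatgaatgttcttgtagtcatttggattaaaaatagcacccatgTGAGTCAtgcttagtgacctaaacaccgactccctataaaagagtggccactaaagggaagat
Mmp13 (chr9:7272364-7272513, plus strand): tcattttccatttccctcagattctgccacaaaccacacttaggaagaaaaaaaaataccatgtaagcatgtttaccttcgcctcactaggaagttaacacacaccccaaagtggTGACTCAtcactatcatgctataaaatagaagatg

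In the Ifit1 promoter 2 separate response elements began 104 and 85 bases before the start site, and in Isg15 3 overlapping ones began 78, 72 and 66 bases before it. The AP-1 match began 46 bases before the start in Mmp3, 63 in Mmp10 and 35 in Mmp13, genes that lie near each other on chromosome 9. Over the full RefSeq windows, from 250 bases before to 50 after the start, 3.61% of the 10203 tested genes with a window held the response element and 6.52% the AP-1 letters. Of the 39 interferon-stimulated genes with a window, 19 held the response element, among them 13 of the 27 that rose. A match describes the letters only.

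Before the results it has to be said that replicates 4 and 5 stood apart from replicates 1 to 3 at both times. Levels are given as CPM, counts scaled to the library total. The first principal component of log2 CPM, with 44.8% of the variance, placed the 48 h libraries between -32.6 and -12.1, the 72 h replicates 1 to 3 between 30.6 and 44.6, and the 72 h replicates 4 and 5 at 0.19 and -0.19. The libraries also differed in how counts depended on transcript length and GC content, here given on the log2 scale relative to the mean of the 10. Per 10 points of GC content, counts changed by 0.07 to 0.12 in the 48 h libraries. In the 72 h libraries, replicates 4 and 5 included, they changed by -0.16 to -0.03, so this trend ran with time in every replicate. Per doubling of length, counts of replicates 1 to 3 changed by 0.01 to 0.07 at 48 h and by -0.25 to -0.14 at 72 h. Those of replicates 4 and 5 changed by 0.18 and 0.17 at 48 h and by 0.06 in both at 72 h. The slope was thus lower at 72 h than at 48 h in both parts of the replicates. The gene lists were therefore also counted within replicates 1 to 3, within replicates 4 and 5, and with offsets that take the length and GC trend out of each library, and these counts are given where they differ or where a result turns on them. Of all genes, 30.1% rose and 27.5% fell in replicates 1 to 3, and 12.1% rose and 13.2% fell in replicates 4 and 5. In all 10 libraries 27.8% rose and 23.8% fell, and with the offsets 23.8% rose and 20.6% fell. Each list count below is to be read beside these shares. Library totals ran from 19.6 M to 31.4 M counts, with means of 23.2 M at both times (SD 4.84 at 48 h and 2.17 at 72 h, n = 5 each).

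**Figure D1:**
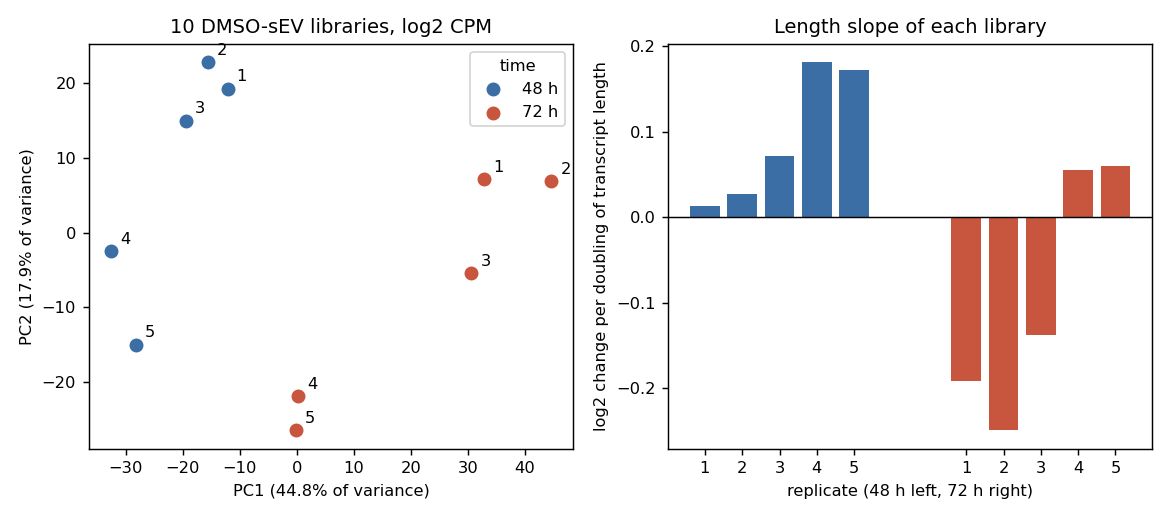
Left, the first and second principal components of log2 CPM of the 10 DMSO-sEV libraries, each point a library numbered by replicate. Right, bars give each library's slope of log2 counts per doubling of transcript length relative to the mean of the 10. At 72 h, replicates 4 and 5 lie near 0 on the first component and the others above 30, and replicates 1 to 3 have the negative slopes.

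The length dependence ran through the whole comparison. Among 10765 genes cut into 5 equal bins by the length of their longest transcript, the median log2 change went down from 0.27 in the shortest bin through 0.07, -0.03 and -0.08 to -0.18 in the longest. In the shortest bin 54.7% of genes rose and 7.80% fell, and in the longest 10.8% rose and 43.2% fell. In adherent 27HC-sEV cells the medians of the same bins were between -0.01 and 0.01. Pearson's r of log2 change with log2 length was -0.43 across genes, which are not independent replicates, and 0.04 with the offsets. With the offsets 3092 genes (23.8%) rose and 2683 (20.6%) fell, and 4022 of the 6718 calls were made again in the same direction, while 173 were made in the other. The part of this dependence in each result was not tested.

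**Figure D2:**
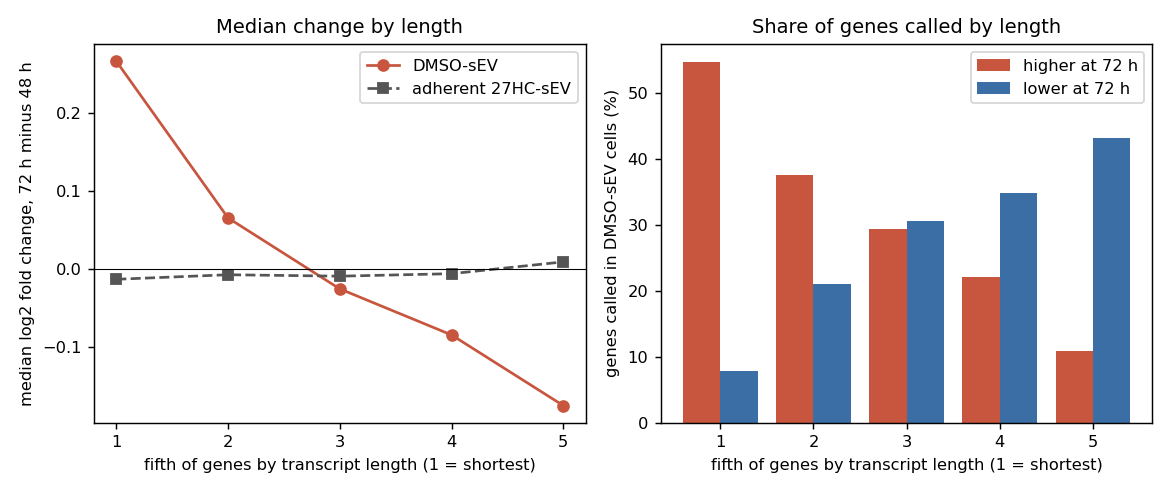
Left, lines give the median log2 fold change from 48 to 72 h by bin of transcript length, for DMSO-sEV and for adherent 27HC-sEV cells. Right, bars give the percentage of genes in each bin that were higher or lower at 72 h in DMSO-sEV cells. Medians run from 0.27 to -0.18 in DMSO-sEV cells and stay within 0.01 of 0 in adherent 27HC-sEV cells.

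The libraries kept the identity of the line. All 8 markers of mammary carcinoma cells of this kind were expressed, with a summed level of 3519 to 4543 CPM at 48 h and 2904 to 3916 CPM at 72 h. Of 15 neutrophil markers, 9 were 0 in all 10 libraries, and the list summed to 5.65 to 11.6 CPM at 48 h and 7.14 to 10.7 CPM at 72 h. Nearly all of this sum was Lcn2, at 5.45 to 11.3 CPM, and the other 14 stayed under 1 CPM. Lymphocyte, endothelial, and erythroid and platelet markers summed to under 1 CPM in every library. The 12 macrophage markers summed to 9.61 to 13.96 CPM over both times, most of it Cd14, at 6.85 to 10.7 CPM. In bulk RNA, fewer cells of a type and less RNA per cell cannot be told apart.

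Among single genes, those with the largest increase encoded 3 secreted metalloproteinases, a chemokine, interferon-inducible proteins and proteins of mitophagy and polyamine catabolism. Among called genes whose times did not overlap and whose mean log2 CPM reached 3, the 10 largest increases were Slfn2, Mmp3, Cxcl1, Mmp13, Bnip3, Mmp10, Ifit1, Isg15, Tgtp2 and Sat1, with log2 changes from 1.28 to 1.86. The 10 largest decreases were Nrp1, Celsr1, Thbs1, Col12a1, Lamc1, Nup210, Col4a2, Itgb4, Plxna1 and Sorl1, with log2 changes from -1.59 to -1.30. Since the choice asked for times without overlap, the direction within replicates 1 to 3 and within replicates 4 and 5 was fixed by it. All 20 passed in both parts, and in the same direction with the offsets. These fits use the libraries that chose the genes and give no independent support. The longest transcripts of the 10 that rose measured 0.756 to 2.81 kb and those of the 10 that fell 3.65 to 11.51 kb.

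Slfn2, a schlafen family protein induced by interferon and linked to quiescence in lymphocytes, had 4.15, 5.42, 4.86, 4.07 and 3.57 CPM in replicates 1 to 5 at 48 h. At 72 h it had 18.3, 16.5, 23.2, 13.3 and 9.38 CPM, a 3.64-fold rise (log2 1.86, SE 0.17). Every 72 h library was above every 48 h library, and replicates 4 and 5 were the lowest at both times.

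The metalloproteinases Mmp3 and Mmp10, the stromelysins, and Mmp13, a collagenase, degrade matrix outside the cell. Mmp3 stood at 91.5, 88.5, 87.5, 69.8 and 61.1 CPM at 48 h and at 294, 292, 312, 190 and 167 CPM at 72 h, a 3.15-fold rise (log2 1.65, SE 0.14). Mmp13 went from 10.5, 12.6, 11.02, 8.70 and 7.29 CPM to 32.9, 32.4, 39.1, 23.6 and 21.5 CPM, a 2.97-fold rise (log2 1.57, SE 0.19). Their libraries did not overlap, and each kept the order of replicates 1 to 3 above replicates 4 and 5 at both times. Mmp10 had means of 27.5 CPM (SD 4.79) and 73.9 CPM (SD 20.3), a 2.68-fold rise. Not all enzymes of this family moved so. Mmp14, the membrane-anchored collagenase, fell from 216 CPM (SD 34.4) to 113 CPM (SD 9.598), a log2 change of -0.94 (SE 0.12), and the gelatinase Mmp9 fell by 0.44 on the log2 scale (SE 0.13). Timp2, an inhibitor that also takes part in activating gelatinase at the membrane, fell by 0.53 (SE 0.09).

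**Figure D3:**
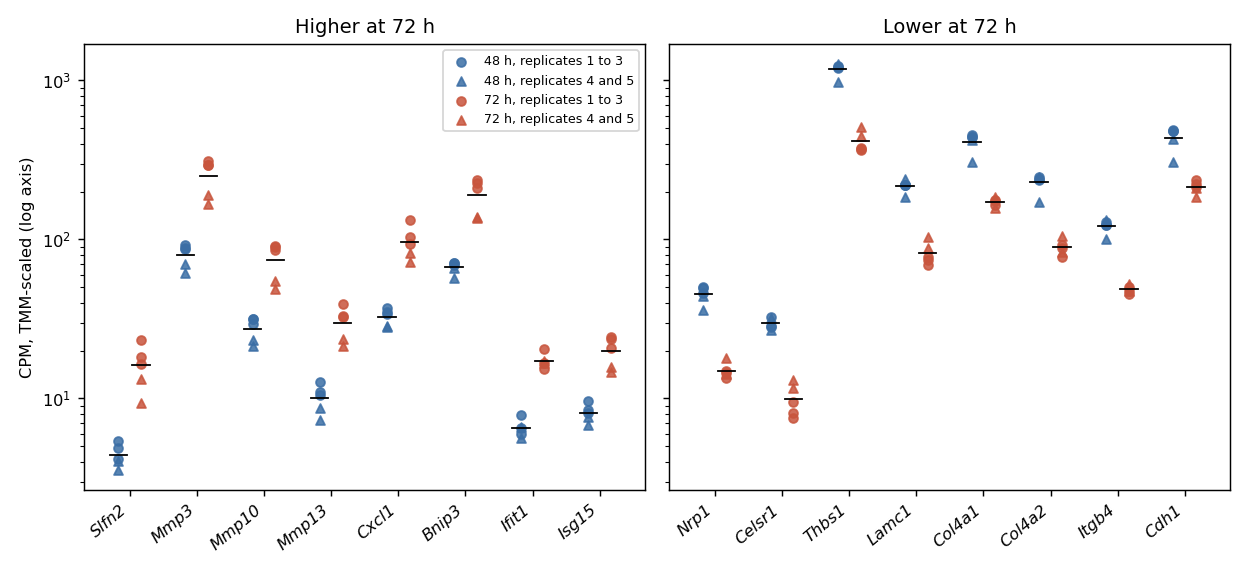
Points are the CPM of each DMSO-sEV library on a log axis, blue at 48 h and red at 72 h, circles for replicates 1 to 3 and triangles for replicates 4 and 5, and black lines mark the mean of 5. The times do not overlap for any of the 16 genes shown, and triangles at 72 h lie lowest among the genes that rose, apart from Ifit1.

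Among the NF-kappa B targets and cytokines, 18 of 39 rose and 7 fell, with a median log2 change of 0.20 against 0.01 over all genes. Chemokines that attract neutrophils and monocytes were among those that rose. Cxcl1, a ligand of CXCR2, had 33.8, 37.1, 34.8, 28.6 and 28.0 CPM at 48 h and 94.01, 103, 132, 81.6 and 72.1 CPM at 72 h, a 2.97-fold rise (log2 1.57, SE 0.13). The 2 times were far apart for this gene, the lowest 72 h library being well above the highest 48 h one. Cxcl5, which binds the same receptor, rose by 1.23 (SE 0.12), Cxcl2 by 1.80 (SE 0.30) from a level under 1 CPM, and Ccl20 by 1.67 (SE 0.22), also from under 1 CPM. Ccl2, which attracts monocytes, rose by 1.19 (SE 0.16), the growth factor Csf2 by 1.24 (SE 0.20) and the alarmin Il1a by 0.69 (SE 0.07). Nfkbia, the inhibitor that NF-kappa B itself induces, rose by 0.31 (SE 0.04). The macrophage growth factor Csf1 fell by 0.89 (SE 0.09) from a mean of 235 CPM, and the NF-kappa B subunit gene Nfkb1 fell by 0.29 (SE 0.07). The list had 17 rising and 12 falling in replicates 1 to 3, 16 and 2 in replicates 4 and 5, and 17 and 5 with the offsets.

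Interferon-stimulated genes were mostly higher at 72 h. Of 49 tested, 34 rose and 2 fell, with a median log2 change of 0.46, and the libraries of 23 rising genes did not overlap. Ifit1, which binds foreign RNA caps, stood at 6.56, 5.95, 7.81, 6.62 and 5.63 CPM at 48 h and at 16.7, 15.4, 20.4, 16.7 and 17.2 CPM at 72 h, a 2.64-fold rise (log2 1.40, SE 0.11). Isg15, a ubiquitin-like modifier, had 9.59, 8.13, 8.42, 7.61 and 6.80 CPM at 48 h and 20.9, 24.5, 23.8, 15.8 and 14.7 CPM at 72 h, a 2.44-fold rise (log2 1.29, SE 0.15). For Ifit1, replicates 4 and 5 lay inside the range of replicates 1 to 3 at 72 h, whereas for Isg15 they lay below. Those are the promoters with the response elements printed above.

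Other antiviral effectors rose from low levels. Rsad2, which makes a chain-terminating nucleotide, had 1.46 CPM (SD 0.21) at 48 h and 3.58 CPM (SD 0.36) at 72 h and rose by 1.28 on the log2 scale (SE 0.16). Ifi44 rose by 1.46 (SE 0.17) from 2.00 CPM. Oasl1, a member of the oligoadenylate synthetase family, rose from 10.1 CPM (SD 0.62) to 19.4 CPM (SD 2.03), or by 0.93 (SE 0.10). Usp18, which removes Isg15 and dampens the receptor, rose by 1.09 (SE 0.19), and the GTPase gene Tgtp2 by 1.28 (SE 0.15).

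The signalling factors above these effectors moved less. Irf9, the DNA-binding subunit of the interferon-activated complex, rose by 0.63 (SE 0.07), from 10.5 to 16.3 CPM, and Irf7, which amplifies the response, by 0.64 (SE 0.16). Stat2 at 0.02 (SE 0.08), Irf1 at 0.00 (SE 0.07) and the double-stranded RNA kinase Eif2ak2 at -0.13 (SE 0.07) did not pass. Of the sensors of cytosolic RNA, Ifih1 rose by 0.43 (SE 0.07), and Ddx58 fell by 0.27 (SE 0.11). Lgals3bp was the other gene of the list that fell, by 0.53 (SE 0.13).

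The interferon-stimulated group was also counted within each part of the replicates. In replicates 1 to 3, 33 rose and 3 fell, with a median of 0.50, beside 30.1% of all genes rising there. In replicates 4 and 5, 21 rose and 0 fell, with a median of 0.43, beside 12.1% of all genes rising. With the offsets 32 rose and 2 fell, with a median of 0.40. Of antigen-presentation genes, which interferon also raises, 7 of 22 rose and 6 fell, with a median of 0.04, and with the offsets 8 rose and 8 fell, with a median of -0.13. Psmb8, an immunoproteasome subunit, rose by 0.47 (SE 0.08), and H2-T22, a class I gene with near-identical relatives, by 0.41 (SE 0.07).

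**Figure D4:**
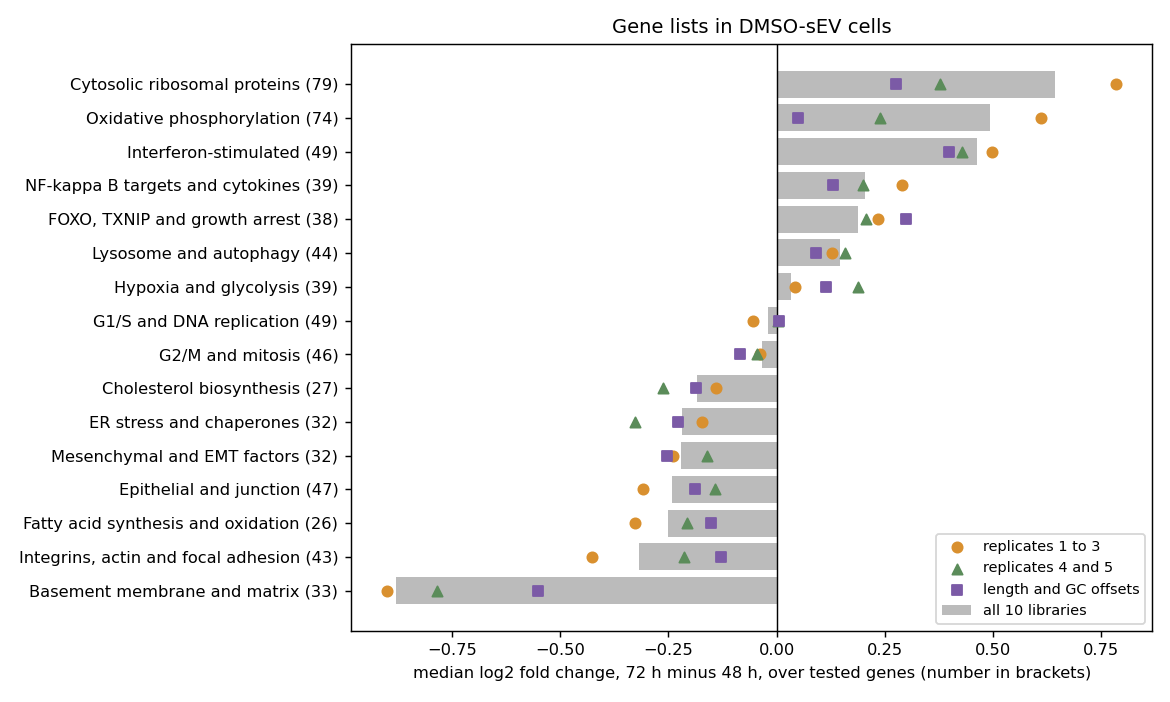
Grey bars give the median log2 fold change from 48 to 72 h over the tested genes of 16 gene lists in all 10 libraries, with the number of genes in brackets. Circles, triangles and squares give the same median in replicates 1 to 3, in replicates 4 and 5, and with length and GC offsets. Interferon-stimulated genes stay between 0.40 and 0.50 and basement membrane genes between -0.90 and -0.55, while oxidative phosphorylation goes from 0.61 to 0.05.

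Basement membrane and matrix genes were mostly lower at 72 h. Of 33 tested, 22 fell and 1 rose, with a median log2 change of -0.88, and the libraries of 17 falling genes did not overlap. Thbs1, or thrombospondin, a matricellular protein, had 1237, 1221, 1198, 1262 and 977 CPM at 48 h and 363, 377, 370, 511 and 447 CPM at 72 h, a 2.85-fold fall (log2 -1.51, SE 0.13). Lamc1, the laminin gamma chain found in most laminins, had 220, 221, 220, 239 and 185 CPM at 48 h and 73.8, 68.6, 77.9, 104 and 88.0 CPM at 72 h, a 2.63-fold fall (log2 -1.39, SE 0.14). For both genes replicate 5 was the lowest at 48 h, and replicates 4 and 5 were the highest at 72 h.

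The falls took in collagens, laminins and proteoglycans of the layer. Of the type IV collagen chains, which form its network, Col4a1 fell by 1.26 (SE 0.13), from 411 to 172 CPM, and Col4a2 by 1.35 (SE 0.13), from 228 to 89.4 CPM. Of the laminin chains, Lamb1 fell by 1.06 (SE 0.12), Lama3 by 1.01 (SE 0.13), Lama5 by 0.86 (SE 0.10) and Lamb2 by 0.40 (SE 0.08). The heparan sulfate proteoglycans, which crosslink the layer and hold growth factors, fell too: Hspg2, or perlecan, by 1.29 (SE 0.15), Agrn, or agrin, by 0.88 (SE 0.09) and Col18a1 by 0.99 (SE 0.13). Plat, the tissue plasminogen activator, was the gene that rose, by 0.44 (SE 0.15).

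These are long transcripts, and the offsets reduced the changes but left most calls. With them 20 genes fell and 1 rose, with a median of -0.55, and Lamc1 had a log2 change of -1.06, Thbs1 -1.28, Col4a1 -0.85 and Col4a2 -0.88. Hspg2 went to -0.38, Lama5 to -0.16, and Lamb2 no longer passed. The list held 23 falling genes in replicates 1 to 3 and 21 in replicates 4 and 5, with medians of -0.90 and -0.79, beside 27.5% and 13.2% of all genes falling. Over the 10 fibroblast markers the summed level was 34.7 to 53.5 CPM at 48 h and 28.6 to 31.8 CPM at 72 h, nearly all of it Postn and Pdgfra. Col3a1, Lum and Thy1 were 0 in all 10 libraries.

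Most receptors and anchors that bind this matrix were lower too. Of 43 integrin, actin and focal adhesion genes, 28 fell and 8 rose, with a median of -0.32. Itgb4, the hemidesmosome integrin that holds laminin, had 128, 123, 122, 132 and 101 CPM at 48 h and 47.7, 45.1, 50.1, 52.7 and 47.5 CPM at 72 h, a 2.49-fold fall (log2 -1.32, SE 0.11). The 5 libraries at 72 h were close together for this gene, and replicate 5 was the lowest at 48 h. Its partner Itga6 fell by 0.73 (SE 0.12), the laminin receptor chain Itga3 by 0.95 (SE 0.11) and Itgav by 0.91 (SE 0.11). Itgb1, the chain that pairs with most of these, fell by 0.29 (SE 0.12). Vcl, or vinculin, which ties focal adhesions to actin, fell by 1.16 (SE 0.12), and the actin crosslinker Flna by 0.48 (SE 0.06). Among those that rose was the small GTPase gene Rhoc, by 0.41 (SE 0.07). Within replicates 4 and 5, 21 fell, and with the offsets 21 fell with a median of -0.13.

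Nrp1, or neuropilin, a co-receptor for semaphorins and vascular endothelial growth factor, had 45.8, 49.2, 50.5, 44.1 and 36.1 CPM at 48 h and 14.8, 13.4, 14.5, 17.9 and 14.2 CPM at 72 h, a 3.01-fold fall (log2 -1.59, SE 0.12). Its libraries did not overlap, and its change was -1.77 with the offsets. Plxna1, a plexin that pairs with neuropilins, fell by 1.31 (SE 0.11). Celsr1, a planar polarity cadherin, had means of 29.7 CPM (SD 2.62) at 48 h and 9.94 CPM (SD 2.32) at 72 h, a 2.96-fold fall. Col12a1, a fibril-associated collagen, fell by 1.47 (SE 0.18), the sorting receptor gene Sorl1 by 1.30 (SE 0.15) and Nup210, of the nuclear pore, by 1.37 (SE 0.09).

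Of 47 epithelial and junction genes, 24 fell, 3 rose and 20 did not pass, with a median of -0.24. Cdh1, or E-cadherin, had 480, 485, 483, 427 and 305 CPM at 48 h and 237, 222, 214, 210 and 186 CPM at 72 h, a 2.04-fold fall (log2 -1.03, SE 0.13). Replicate 5 was the lowest at both times, and the times did not overlap. The basal keratin Krt14 fell by 0.97 (SE 0.08), from 120 to 60.9 CPM, the desmosomal cadherin Dsg2 by 1.08 (SE 0.12) and the keratin Krt8 by 0.31 (SE 0.06). Epcam at -0.12 (SE 0.14) and Krt18 at -0.06 (SE 0.06) did not pass.

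Of 32 mesenchymal genes and EMT factors, 15 fell and 4 rose, with a median of -0.22. Fn1, or fibronectin, fell by 1.06 (SE 0.16), from 2257 to 1085 CPM, Col5a1 by 1.02 (SE 0.11) and Col6a1 by 0.99 (SE 0.12). Vim, or vimentin, had 1759 CPM (SD 39.6) at 48 h and 1774 CPM (SD 81.5) at 72 h, a log2 change of 0.01 (SE 0.04) that did not pass. None of the transcription factors named here passed: Zeb1 changed by -0.36 (SE 0.21), Zeb2 by 0.16 (SE 0.09), Snai1 by -0.09 (SE 0.10) and Twist1 by -0.05 (SE 0.07). Those that rose included S100a4, which binds myosin, by 1.19 (SE 0.17), and Spp1, or osteopontin, by 0.64 (SE 0.17). With the offsets S100a4 rose by 0.58. YAP and TEAD targets, which respond to cell spreading, had 13 falling and 5 rising of 29, among them the matricellular gene Ccn2, which fell by 0.56 (SE 0.09), Ccn1, by 0.42 (SE 0.11), Crim1, by 0.90 (SE 0.11), and the receptor gene Axl, by 0.67 (SE 0.09). With the offsets their median was 0.00, with 9 falling and 6 rising.

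Of 27 cholesterol genes, 13 fell, 3 rose and 11 did not pass, with a median of -0.18. Scap, the escort protein of the sterol-sensing transcription factors, had 80.6, 83.2, 77.8, 78.5 and 65.9 CPM at 48 h and 38.8, 35.9, 37.7, 45 and 38.0 CPM at 72 h, a log2 change of -0.98 (SE 0.08). The times did not overlap, and replicate 5 was the lowest at 48 h. The falls took in the regulator Srebf2, at -0.80 (SE 0.09), and the enzymes Sqle, at -0.69 (SE 0.11), and Hmgcs1, at -0.26 (SE 0.04). Of 26 fatty acid genes 15 fell and 5 rose, with the desaturase Fads2 at -1.01 (SE 0.09), the elongase Elovl1 at -0.75 (SE 0.11), Acaca at -0.58 (SE 0.10) and Fasn at -0.56 (SE 0.13). Scd2, a stearoyl-CoA desaturase, had means of 2252 CPM (SD 202) and 958 CPM (SD 91.0), a 2.35-fold fall, and its relative Scd1 fell by 0.84 (SE 0.08). They belong to the 15 LXR targets and sterol storage genes, of which 8 fell and 2 rose, with Srebf1 at -0.89 (SE 0.11), the lysosomal sterol transporter gene Npc1 at -0.79 (SE 0.14) and its partner Npc2 rising by 0.51 (SE 0.13). With the offsets 14 cholesterol genes fell and 2 rose, and Fasn, a long transcript, was at -0.04 and did not pass.

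Hypoxia and glycolysis genes split by member. Of 39, 18 rose and 7 fell, with a median of 0.03. Bnip3, a mitophagy receptor induced by low oxygen, had 71.1, 71.2, 69.4, 57.0 and 66.0 CPM at 48 h and 210, 236, 226, 137 and 138 CPM at 72 h, a 2.83-fold rise (SE 0.13 on the log2 scale). Replicates 4 and 5 at 72 h lay between the 48 h libraries and the others at 72 h. Its relative Bnip3l rose by 1.02 (SE 0.09), the prolyl hydroxylase Egln3 by 0.44 (SE 0.05), Ndrg1 by 0.58 (SE 0.07), and the glycolytic enzymes Pgk1 by 0.56 (SE 0.08) and Ldha by 0.48 (SE 0.08). Hif1a at -0.01 (SE 0.06) and Vegfa at -0.06 (SE 0.05) did not pass, and the glucose transporter gene Slc2a1 fell by 0.34 (SE 0.12). With the offsets 20 rose and 4 fell.

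Of 38 FOXO, TXNIP and growth arrest genes, 15 rose, 5 fell and 18 did not pass, with a median of 0.19. Ccng2, a cyclin of quiescent cells, had 52.5, 54.8, 48.9, 46.0 and 50.4 CPM at 48 h and 119, 126, 129, 88.9 and 89.6 CPM at 72 h, a 2.18-fold rise (log2 1.13, SE 0.08). Its 72 h libraries all lay above the 48 h ones. Txnip, which restrains glucose uptake, rose by 0.88 (SE 0.14), the repressor Hbp1 by 0.87 (SE 0.08) and the clock repressor Nr1d2 by 0.85 (SE 0.07), while the insulin receptor gene Insr fell by 0.62 (SE 0.10). With the offsets 20 of the 38 rose and 2 fell.

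Stress-response genes gave a mixed picture. Of 42 genes of the integrated stress response, 15 rose and 12 fell, and within replicates 4 and 5, 14 rose and 5 fell. Atf4, its central factor, rose by 0.35 (SE 0.05), Ddit3 by 1.02 (SE 0.13), Trib3 by 0.50 (SE 0.09) and Ddit4, an inhibitor of mTORC1, by 0.41 (SE 0.05). Among immediate early genes, 10 of 35 rose, near the 27.8% of all genes that rose, and 5 fell, beside 23.8% of all genes. With the offsets 15 rose and 2 fell, beside 23.8% and 20.6% of all genes. Those that rose without the offsets held Atf3, with 12.2 CPM (SD 0.58) before and 27.9 CPM (SD 5.69) after, a 2.28-fold rise. They also held Klf6, which rose by 0.37 (SE 0.04). Of 32 genes of endoplasmic reticulum stress 15 fell and 5 rose, with a median of -0.22, and with the offsets 20 fell and 4 rose. Sel1l and Syvn1, the 2 parts of a ligase that clears misfolded protein, fell by 0.91 (SE 0.11) and 0.70 (SE 0.09), and the chaperones Hyou1 and Hsp90b1 by 0.81 (SE 0.11) and 0.47 (SE 0.13). Hspa5, the main chaperone of the compartment, was at -0.12 (SE 0.11) and did not pass, while Dnajb9 rose by 0.71 (SE 0.13) and Crebrf by 0.97 (SE 0.05). Sat1, which acetylates polyamines for export, had 69.1 CPM (SD 7.46) at 48 h and 168 CPM (SD 37.0) at 72 h, a 2.43-fold rise.

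Autophagy genes were among those that rose. In the lysosome and autophagy list 21 of 44 rose and 8 fell, with a median of 0.15. Map1lc3b, the membrane protein LC3 of autophagosomes, rose by 0.78 (SE 0.08), its relative Gabarapl2 by 0.86 (SE 0.13), Atg12 by 0.58 (SE 0.07) and the protease gene Ctsl by 0.66 (SE 0.15). Lamp1 was at -0.21 (SE 0.10) and did not pass. Of 36 NRF2 and oxidative stress genes 11 rose and 11 fell, or 10 and 18 with the offsets, with Prdx5 up by 0.84 (SE 0.11) and Gsto1 by 0.44 (SE 0.08). Of 23 heat shock genes 10 rose and 5 fell, but with the offsets 4 rose and 5 fell. Dnajb1 rose by 0.34 (SE 0.05) and St13 by 0.31 (SE 0.05).

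Of 49 G1/S genes 17 rose and 16 fell, and of 46 G2/M genes 13 rose and 18 fell, with medians of -0.02 and -0.03. With the offsets 14 G1/S genes rose and 15 fell, while 8 G2/M genes rose and 22 fell, with a G2/M median of -0.08. Mki67, a marker of cycling cells, had 655, 635, 658, 792 and 764 CPM at 48 h and 352, 358, 409, 486 and 460 CPM at 72 h, a 1.70-fold fall (log2 -0.76, SE 0.09). It is a long transcript, and its change was -0.48 with the offsets. The mitotic kinase Plk1 fell by 0.39 (SE 0.06) and Kif23, a cytokinesis motor, by 0.33 (SE 0.05), while Cdk1 rose by 0.40 (SE 0.09) and the replication genes Gins4 and Prim1 by 0.62 (SE 0.10) and 0.65 (SE 0.11). Top2a at -0.02 (SE 0.05) and Ccnb1 at 0.09 (SE 0.04) did not pass. Of 12 D cyclins and inhibitors 6 rose and 3 fell, or 6 and 0 with the offsets. Cdkn1b, or p27, an inhibitor linked to contact and starvation, rose by 0.46 (SE 0.05) and the pocket protein gene Rbl2 by 0.28 (SE 0.05), whereas Ccnd1 fell by 0.20 (SE 0.06) and Cdkn1a was at 0.13 (SE 0.07) and did not pass. Of 30 p53 targets 10 rose and 4 fell, beside 27.8% and 23.8% of all genes, but with the offsets 6 rose and 7 fell. Without the offsets Trp53inp1 was up by 0.89 (SE 0.09) and Mdm2 by 0.44 (SE 0.05). Of 49 MYC targets and ribosome biogenesis genes 23 fell and 14 rose, or 25 and 9 with the offsets, with nucleolin, Ncl, at -0.48 (SE 0.05) and Bysl at -0.55 (SE 0.05), while Myc itself was at -0.11 (SE 0.05) and did not pass.

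Short, abundant housekeeping transcripts rose together, and these results moved with the length dependence. Of 79 cytosolic ribosomal protein genes 74 rose and 0 fell, with a median of 0.64. The median was 0.79 in replicates 1 to 3 and 0.38 in replicates 4 and 5, where 50 rose, and with the offsets 54 rose and 7 fell, with a median of 0.28. Rpl17 rose by 1.105 (SE 0.18) and Rps6 by 0.53 (SE 0.08). Rps6 stood at 39.1 CPM at 48 h against 1111 CPM for Rpl17, and ribosomal protein reads can be split with near-identical pseudogenes. Of 74 oxidative phosphorylation genes 59 rose and 2 fell, with a median of 0.49, but within replicates 4 and 5, 14 rose and 1 fell, and with the offsets 28 rose and 9 fell with a median of 0.05. Uqcrh, of respiratory complex III, rose by 0.93 (SE 0.16), and Ndufs4, of complex I, by 0.87 (SE 0.16). Long noncoding RNAs, many of them hosts of small nucleolar RNAs, had 12 rising and 1 falling of 21, and 5 and 4 with the offsets. Of these Zfas1 rose by 0.96 (SE 0.15) and Oip5os1 by 0.31 (SE 0.05). Of 22 replication-dependent and linker histone genes 3 rose and 0 fell, or 2 and 4 with the offsets. Of these H1f0 rose by 0.33 (SE 0.07) and H1f2 by 0.46 (SE 0.13); most histone messages lack a poly(A) tail and these libraries were made from polyadenylated RNA.

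The same time interval was then set against that in 27HC-sEV cells, in which 856 genes rose and 851 fell among adherent cells and 742 and 899 among non-adherent ones. A test of the difference called 37.3% of genes between DMSO-sEV and adherent 27HC-sEV cells, 21.4% with the higher and 15.9% with the lower change in DMSO-sEV cells. Interferon-stimulated genes changed differently. The change was higher in DMSO-sEV cells for 40 of 49 and lower for 1, and the median change was -0.54 in adherent 27HC-sEV cells. Ifit1 went from 6.51 CPM (SD 0.84) to 17.3 CPM (SD 1.86) in DMSO-sEV cells and from 9.41 CPM (SD 0.88) to 4.04 CPM (SD 0.69) in adherent 27HC-sEV cells, n = 5 each. The 2 changes differed by 2.62 on the log2 scale (SE 0.17, edgeR adjusted p 2.4e-11). At 48 h the adherent 27HC-sEV cells thus had the higher mean, and at 72 h the DMSO-sEV cells had it.

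The same held for the list member Oasl1. Its 10.1 and 19.4 CPM in DMSO-sEV cells stood against 19.5 and 8.19 CPM in adherent 27HC-sEV cells, a difference in change of 2.19 (SE 0.14). The change of the dsRNA sensor gene Ifih1, also in the list, differed by 1.20 (SE 0.09). Outside the list, that of the interferon-inducible Apol9b differed by 1.33 (SE 0.11) and that of the chemokine gene Ccl5 by 1.88 (SE 0.15). Cxcl10, a chemokine that interferon and NF-kappa B both raise, rose by 1.33 (SE 0.17) in DMSO-sEV cells and fell by 1.104 in adherent 27HC-sEV cells. Against non-adherent cells the test of the difference called 2863 of the 13008 genes, 1432 with the higher and 1431 with the lower change in DMSO-sEV cells. Of the 49 interferon-stimulated genes, 36 had the higher change and 0 the lower. Crebrf, Dusp6, a phosphatase that restrains ERK, and Neurl3, a ubiquitin ligase, also differed there by 0.79 (SE 0.08), 0.78 (SE 0.08) and 1.37 (SE 0.11).

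**Figure D5:**
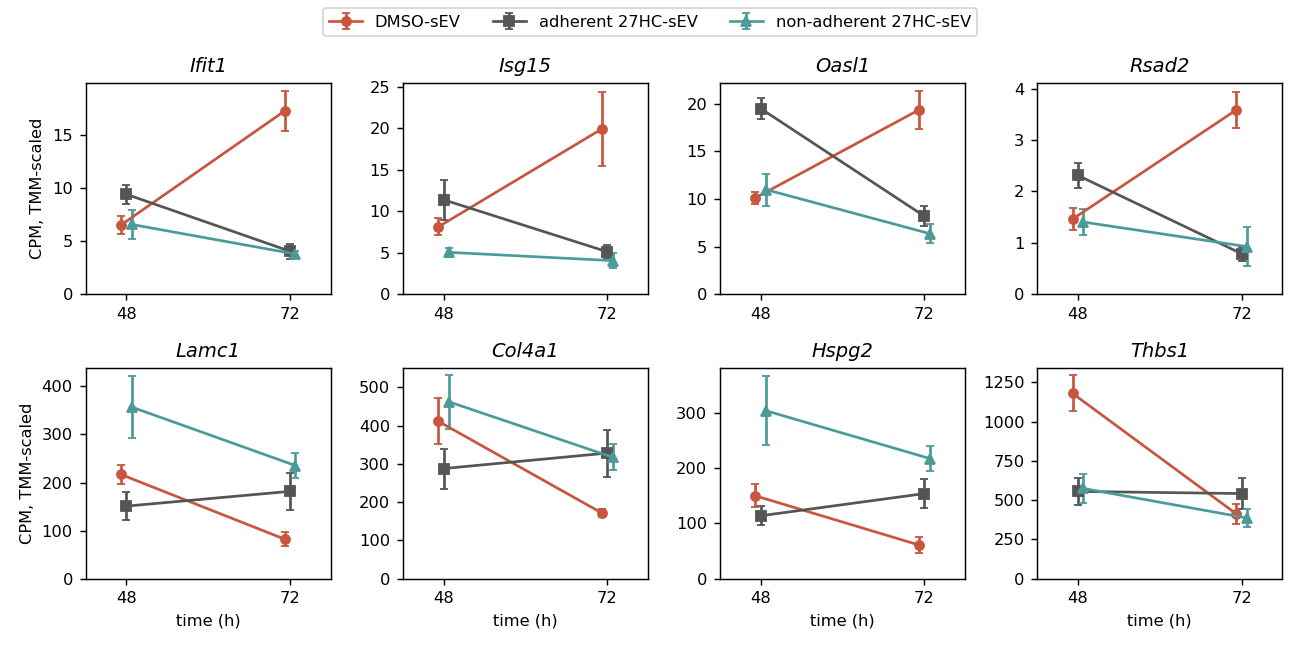
Points are mean CPM with SD bars at 48 and 72 h in the DMSO-sEV, adherent 27HC-sEV and non-adherent 27HC-sEV groups, n = 5 except 4 for non-adherent cells at 72 h. The 4 interferon-stimulated genes above rise in DMSO-sEV cells and fall in adherent 27HC-sEV cells. The 4 matrix genes below fall in DMSO-sEV cells, as with Lamc1 from 217 to 82.4 CPM, while none of the 4 passes the test in adherent 27HC-sEV cells, Hspg2 closest at an adjusted p of 0.0504.

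For basement membrane genes the difference went the other way. The change was lower in DMSO-sEV cells than in adherent 27HC-sEV cells for 25 of 33 and higher for 0, and the median in adherent 27HC-sEV cells was 0.26. Lamc1 had 151 CPM (SD 28.6) and 182 CPM (SD 38.6) at 48 and 72 h in adherent 27HC-sEV cells, where its change did not pass. The 2 changes differed by -1.66 (SE 0.20), or by -1.27 with the offsets. For Thbs1 the difference went from -1.48 to -1.22 with the offsets, for Hspg2 from -1.73 to -0.59 and for Lama5 from -1.30 to -0.43. That of Lama3 went from -0.71 to -0.24 and no longer passed. In non-adherent cells the list also had a negative median, -0.32, and Lamc1 fell by 0.60 (SE 0.15) and Thbs1 by 0.57 (SE 0.14). The change was lower still in DMSO-sEV cells for 17 of 33 genes and higher for 3, beside 1431 and 1432 of all 13008 genes. Of the metalloproteinases, Mmp10 rose more in DMSO-sEV cells, by a difference of 1.22 (SE 0.21), while Mmp3, at 0.45 (SE 0.20), and Mmp13, at 0.57 (SE 0.26), did not differ past the threshold, and both also rose in adherent 27HC-sEV cells, by 1.20 and 0.999. The ribosomal protein genes, 55 of 79 with the higher change in DMSO-sEV cells, and oxidative phosphorylation genes, 46 of 74, differed as well. But against non-adherent cells 2 of 79 and 3 of 74 had the higher change and 0 the lower, beside 1432 and 1431 of all 13008 genes. Beside these counts, and those of the basement membrane genes, stand the length slopes of the DMSO-sEV libraries. They were lower at 72 h than at 48 h in replicates 1 to 3 and in replicates 4 and 5, and negative at 72 h in replicates 1 to 3.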

How the data were processed

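RNA of 4T1 cells was sequenced as polyadenylated libraries, per the labels. The authors deposited gene-level estimated counts, unscaled per the file headers, and TMM-normalized log2 CPM, which the authors made and which served in 1 alternative here. The submitters' processing notes name Salmon 1.10.0 and, as builds, GRCm39 and mm39; the step from transcripts to genes is not given in the sources used here. Of the deposited estimated counts 40.8% were not whole, and they were rounded. Genes with near-identical copies (chemokines, Ifit, Oas, Tgtp, Scd, histone and ribosomal protein genes), and those overlapping an antisense gene, are uncertain where reads could be shared.

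Low genes were removed with filterByExpr of edgeR, at a count of 10 and a total of 15. All 6 groups, 29 libraries, were fitted with TMM factors in edgeR 4.0.16 (glmQLFit, robust; glmQLFTest, two-sided, R 4.3.3), with Benjamini-Hochberg adjustment over all 13008 genes at 0.05. The SE is the absolute log2 change divided by the square root of F. CPM use the TMM factors. Differences between kinds of cells were tested as interaction contrasts of this model. The code was tested on simulated data. A gene named with a log2 change and SE rose or fell only if its adjusted p was under 0.05.

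Lengths and GC content are of the longest GENCODE M21 transcript (GRCm38), found for 12397 genes; offsets are natural splines of 4 degrees of freedom per library. Also run were fits on counts left unrounded, with upper-quartile or RLE factors, with DESeq2 1.42.0, with limma-voom and limma-trend (limma 3.58.1), 2 other filters, a replicate block, the 10 libraries alone, leaving out each library, each part of the replicates, and the offsets. Offsets within each part of the replicates were added after the data were seen.

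The members, the 34 gene lists and the tests were chosen with earlier results of these data known. The text names the 10 largest increases and decreases, the 2 genes of smallest p per list of at least 8 tested genes, the 4 genes of smallest adjusted p per difference between kinds of cells, from the lists and from all genes, and other list members by role. Some genes that this rule names are not reported here.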

Additional observations from a re-analysis of the deposited data

Results flagged for a closer look

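The tests of a single library far from the other 4 of its time were run on 320 groups (each named gene at each time) and marked 25, where chance flags about 1 in 20 groups, and the value given is the gap to the nearest library over the range of the 5. At 48 h replicate 5 was the low library for Thbs1 (0.795), Col4a2 (0.870), Col4a1 (0.814), Lamb1 (0.933), Itgb4 (0.724), Itga3 (0.809), Itga6 (0.718), Itgav (0.732), Vcl (0.800), Crim1 (0.803), Col6a1 (0.713), Mmp14 (0.713), Cdh1 (0.727), Sorl1 (0.906), Scap (0.714), Scd2 (0.775), Scd1 (0.725), Srebf1 (0.873) and Srebf2 (0.768). All of these genes were lower at 72 h.

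In other libraries at 48 h, Rbl2 was high in replicate 3 (0.787) and Ifi44 low in replicate 2 (0.786). At 72 h, Oasl1 (0.715) and Cxcl10 (0.746) were high in replicate 3 and Krt14 low in it (0.790), and Srebf2 was low in replicate 2 (0.747).

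Time changes that differed between kinds of cells, by the test of the difference, were flagged for the genes named by that rule. Against adherent 27HC-sEV cells the log2 change was higher in DMSO-sEV cells by 2.62 for Ifit1, 2.19 for Oasl1, 1.88 for Ccl5, 1.33 for Apol9b and 1.20 for Ifih1. Against non-adherent 27HC-sEV cells it was higher by 2.19 for Ifit1, 1.71 for Oasl1, 1.37 for Neurl3, 0.79 for Crebrf and 0.78 for Dusp6.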

How the results depend on the processing

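Leaving out each library in turn gave 3077 to 3911 genes higher and 2607 to 3464 lower at 72 h, 125 to 250 and 134 to 176 of them by at least 2-fold, and 4220 to 5746 and 2327 to 4063 genes whose change differed from adherent and non-adherent 27HC-sEV cells. The median of interferon-stimulated genes then stayed between 0.43 and 0.51 and that of basement membrane genes between -0.99 and -0.83. Requiring 1 CPM gave 110 genes higher by at least 2-fold. The 10 DMSO-sEV libraries alone gave 2279 genes higher and 2213 lower, or 3387 and 3834 with a replicate block, and 91 higher by at least 2-fold, or 94 with the block. In the fits of a part of the replicates only the DMSO-sEV libraries were cut. The 27HC-sEV groups kept all of their libraries, and the spread was estimated over all groups. Replicates 1 to 3 gave 355 genes higher by at least 2-fold and 5306 differing from non-adherent cells. Replicates 4 and 5 gave 1598 higher and 1752 lower, 77 and 84 by at least 2-fold, and 3061 and 1133 differing from adherent and non-adherent cells; 47.7% of the calls in all 10 were made there and 94.2% in replicates 1 to 3. The offsets gave 104 and 61 genes by at least 2-fold, 99 and 61 with a replicate block, and within replicates 4 and 5 1423 higher, 1348 lower, 55 and 43 by at least 2-fold, and 2944 and 1199 differing. Of 160 named genes, 9 lost their call with the offsets, 5 gained one and 1 changed direction. Within replicates 4 and 5, 14 lost it and 0 gained one, and with the offsets there 24 lost it and 5 gained one. With offsets Vim had -0.13 (with a replicate block) and -0.22 (replicates 1 to 3), Ccnb1 -0.19 (with and without the block) and -0.25 (replicates 1 to 3), and Lamb2 0.12 (replicates 1 to 3). Except that fewer libraries or genes entered some of these fits, the cause was not tested. The replicate block gave 3773 genes higher and 3418 lower. Same-numbered libraries of the 2 times correlated by 0.01 to 0.37 in their deviations from group means. Replicate 3 was the lowest, and the other 4 pairs ran from 0.248 to 0.37. Differently numbered libraries correlated by 0.08 to 0.31 within replicates 1 to 3 and within replicates 4 and 5, and by -0.35 to -0.09 across these parts. The numbers thus carry structure shared by both times, and the main fit holds no term for it. Since replicate 3 was under 0.1 and the labels name no shared culture or day, the numbers were not taken to pair the libraries. Genes under about 1 CPM rest on few counts and their changes are imprecise.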
